A study of Mus musculus with 13 samples.

Results

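Sohlh1, Sohlh2, Figla, Nobox, Lhx8 and Taf4b, 6 transcription factor genes best known from the oocyte, were followed in bulk RNA of ovarian tumors and normal ovaries of the mouse. They are the rows of the deposited table that carry these 6 symbols, of 53465 genes in all. Sohlh1 was chosen by its TPM in these libraries, which was higher in every tumor than in every ovary, and the others were taken as its partners and targets in the oocyte. For these 6 genes the contrast of tumors with ovaries is therefore given as a description, without a test.

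SOHLH1 and SOHLH2 are basic helix-loop-helix (bHLH) proteins of germ cells that bind E-boxes, short DNA sites with the letters CANNTG, alone or as a pair. In the ovary they act in the oocytes of primordial follicles and are required there for normal levels of Lhx8, Figla and Nobox. FIGLA, also a bHLH protein, pairs with the broadly expressed E proteins and drives the zona pellucida genes, while NOBOX and LHX8 are homeodomain proteins of the early oocyte and TAF4B is a germline-enriched subunit of the general transcription factor TFIID. SOHLH1 and SOHLH2 also act in the spermatogonia of the testis.

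The 3 WT samples were ovaries of untreated wild-type C57BL/6 mice, for which the labels give the same age of 8 to 12 wk, in a protocol written for the electroporated mice. The 10 MP samples were EPO-GEMM tumors, raised in C57BL/6 females of 8 to 12 wk by injecting plasmids into the ovary and electroporating it, with Cas9 and an sgRNA against Trp53 and with a transposon vector overexpressing MYC. Cells of the ovary and of the fallopian tube surface were both exposed to the plasmids, so the method does not by itself fix the cell in which a tumor began. The paper reports that editing limited to CK8-positive epithelial cells gave tumors of similar histology and transcription. From this it concludes that these tumors arise from epithelial cells. RNA came from whole tissue at end point. In such bulk samples, fewer cells of a type and less RNA per cell cannot be told apart. The libraries fall into 3 sets by a project number shared within their names. Set 1 holds the 3 WT ovaries with MP tumors 1 to 3, set 2 holds MP tumors 4 to 6 and set 3 holds MP tumors 7 to 10. With no WT ovary in sets 2 and 3, library set and tumor can be separated from each other only within set 1.

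Values are TPM, a share of all RNA scaled for gene length that sums to 1000000 in each library. Reads were worked back from them and came to between 31445004 and 64013840 per WT ovary but only to between 3892690 and 19906507 per MP tumor, so that low values are less precise in the tumors. Trp53, the gene cut by the sgRNA, was lower than in every ovary in MP tumors 1 to 9, at no more than 26.0 TPM, but the library labelled MP tumor 10 had 187 TPM against at most 85.4 in the ovaries. Myc of the mouse was above every ovary in 4 tumors, and reads from the transposon's MYC were not counted separately here. In MP tumor 2, 10 genes held 55.1% of all TPM, against at most 20.6% in any other library. Differences between the groups were tested with limma, a linear model with a shared estimate of the spread, on log2(TPM + 1) in the 17277 genes with at least 1 TPM in at least 3 libraries. The median gene was lower in the tumors by 0.58 on the log2 scale, and 2463 genes were called lower (14.3%) and 433 higher (2.51%) at a Benjamini-Hochberg adjusted P value of 0.05.

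Sohlh1 lies on the minus strand of chr2:25842995-25847248 (GRCm38, ENSMUSG00000059625), with 8 exons of 1289 bp in all and no other annotated gene overlapping it. The 250 bases before its start (chr2:25847249-25847498, minus strand, RefSeq, GRCm38.p6) are shown because the gene encodes an E-box binding protein and they hold 5 E-boxes themselves. The same stretch of Nobox (chr6:43309555-43309804, minus strand), the member with the lowest log2 difference between tumors and ovaries, is shown beside it. Both are written 5′ to 3′ and end at the base before the start, and capitals mark each CANNTG, which reads the same way on both strands.
Sohlh1: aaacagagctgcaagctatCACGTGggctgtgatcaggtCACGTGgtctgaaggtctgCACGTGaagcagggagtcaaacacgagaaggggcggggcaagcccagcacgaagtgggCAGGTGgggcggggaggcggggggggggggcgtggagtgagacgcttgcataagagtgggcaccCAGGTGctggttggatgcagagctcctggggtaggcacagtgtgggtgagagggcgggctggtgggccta
Nobox: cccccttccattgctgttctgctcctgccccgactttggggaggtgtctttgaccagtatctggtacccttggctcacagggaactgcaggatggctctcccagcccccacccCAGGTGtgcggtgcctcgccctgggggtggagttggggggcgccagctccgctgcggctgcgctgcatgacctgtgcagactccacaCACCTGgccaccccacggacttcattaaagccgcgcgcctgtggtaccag
Of the 5 E-boxes of Sohlh1, 3 have the letters CACGTG, which is the core that MYC with MAX and USF proteins can bind, and their first bases lie 231, 211 and 192 bases before the start. The other two read CAGGTG. Among 32851 RefSeq windows of the same length, 6.02% hold at least 1 CACGTG and 20 windows (0.0609%) hold at least 3. The windows of Sohlh2, Figla, Nobox and Lhx8 hold no CACGTG, and they have 1, 2, 2 and 0 other E-boxes. By the GENCODE annotation the window of Figla lies inside the gene and those of Sohlh2 and Lhx8 run into it, so these 3 were counted but are not like stretches upstream of a start, and they are not shown. No such window was given for Taf4b. Of 11655 tested genes with a window, 2.55% rose, 15.0% fell and the median log2 fold change was -0.67. Sohlh1 apart, 14 of them hold at least 3 CACGTG, of which 0 rose and 2 fell (14.3%), with a median of -0.45. Those 2, Nxf2 and Lamp1, are named here after their values were seen. Of the 1116 genes that hold at least 1 CACGTG 39 rose (3.49%), and of the 104 that hold at least 2, 5 rose (4.81%). Sohlh1, chosen for its higher level in tumors, is counted in both, so no trend with the number of sites is read from these shares. A match of letters is a description of the sequence, and binding was not measured here.

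Sohlh1 RNA was low in all 3 WT ovaries and present in all 10 MP tumors. The ovaries had 1.25, 0.926 and 1.63 TPM (1.27 ± 0.353, SD, n = 3), from 24, 11 and 41 reads. The tumors ran from 275 TPM in MP tumor 5 and 209 in MP tumor 3 through 151 in MP tumor 7, 108 in MP tumor 6, 73.0 in MP tumor 2 and 60.0 in MP tumor 1 to 39.1 in MP tumor 4, 24.2 in MP tumor 8, 21.3 in MP tumor 9 and 6.98 in MP tumor 10. The groups did not overlap, and even the lowest tumor stood 5.50-fold over the ovaries' mean, while the highest stood 217-fold over it. On the log2(TPM + 1) scale the difference was 4.77 (standard error 0.86), and it was 4.74 without MP tumor 2 and 5.10 without MP tumor 10. Of all tested genes, 522 (3.02%) had every tumor above every ovary, and Sohlh1 was chosen as a gene of that kind.

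**Figure D1:**
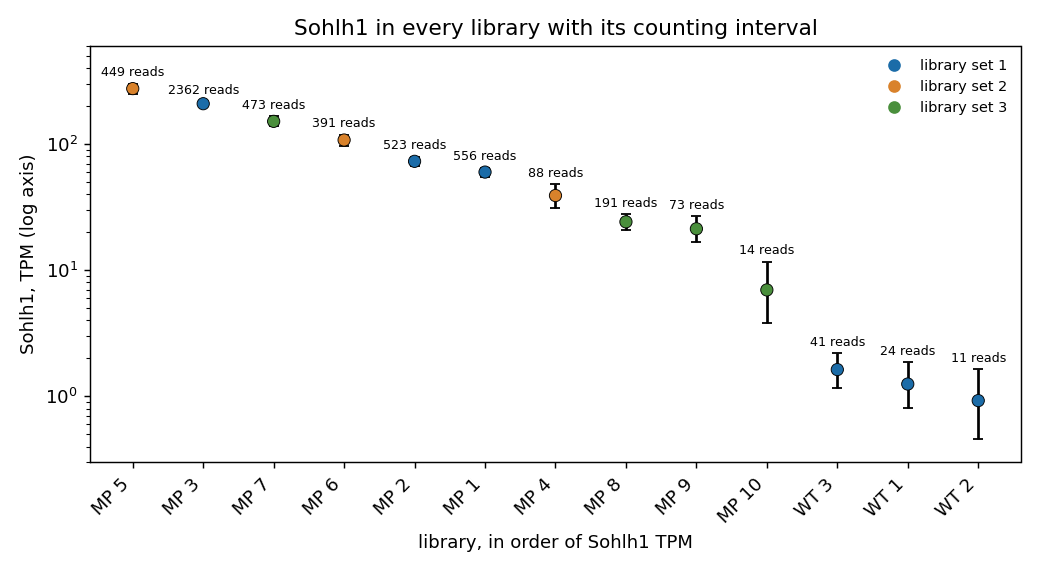
Sohlh1 in TPM (log axis) in each of the 13 libraries, ordered by level and coloured by library set. Bars are exact 95% Poisson intervals of the reads printed above them, which cover counting error only. All 10 MP tumors stand above the 3 WT ovaries, from 6.98 to 275 TPM.

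The order among the tumors is mostly wider than counting error. The exact 95% Poisson intervals of neighbours in that order overlapped for 1 pair of tumors, MP tumor 8 (20.9 to 27.9 TPM) and MP tumor 9 (16.7 to 26.8 TPM). MP tumor 10 rested on 14 reads, with an interval from 3.82 to 11.7 TPM, which still lies above the highest interval of an ovary (up to 2.21 TPM). The 3 ovaries could not be ranked against each other, because both pairs of neighbours overlapped. The tumors' spread was thus large (96.8 ± 89.4 TPM, SD, n = 10, median 66.5). These intervals treat reads as independent.

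Sohlh2, the partner closest to Sohlh1 in kind, was not present alongside it in most tumors. The ovaries had 0.285, 0.276 and 0.412 TPM. No read was found in 7 tumors, 3 reads each were found in MP tumor 1 (0.177 TPM) and MP tumor 4 (0.727 TPM), and MP tumor 5 had 32 reads (10.7 TPM). MP tumor 5 is also the tumor with the most Sohlh1. Where no read was found, a count of 0 allows between 0.145 and 0.816 TPM, which includes the level of the ovaries in some tumors. Sohlh2 reached 1 TPM in 1 library and so failed the filter.

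Figla was found only in the ovaries. The 3 ovaries had 2.42, 2.08 and 1.78 TPM from 75 reads in all, and 0 reads were found in the 10 tumors together. Taking the floor as 3 reads over the group (0.0895 TPM), Figla was at least 23.4-fold lower in the tumors. In single tumors the floor of 3 reads lies between 0.409 and 2.84 TPM, so in the shallowest ones the level of the ovaries was not excluded. The gene passed the filter through the ovaries alone. Its log2 difference was -1.62, but -1.05 with quantile normalization and -4.44 with a pseudocount of 0.1 TPM.

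Nobox followed the same pattern at a higher level. It had 14.2, 15.6 and 10.0 TPM in the ovaries, from 1108 reads. In the tumors 9 reads were found in all, with 0.277 TPM in MP tumor 1, 0.569 in MP tumor 4, 0.393 in MP tumor 5 and 0.162 in MP tumor 8 and no read in the other 6. Every tumor was below every ovary, as for 16.4% of all tested genes, and the ratio of the means was 94.8. The difference on the log2(TPM + 1) scale was -3.65 (standard error 0.26), and it ran from -2.81 with quantile normalization to -6.21 with a pseudocount of 0.1 TPM. This gene too passed the filter through the ovaries alone.

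Lhx8 divided the tumors. The ovaries had 2.29, 2.96 and 2.47 TPM. MP tumor 8 (4.32 TPM, 67 reads) and MP tumor 9 (5.35 TPM, 36 reads) were above every ovary, and the other 8 tumors had at most 2 reads and no more than 0.281 TPM. The groups overlapped through those 2 tumors, and the log2 difference was -1.19 (standard error 0.56). It was -1.79 within library set 1, -0.55 with quantile normalization and -2.81 with a pseudocount of 0.1 TPM. Both tumors belong to library set 3 and had less Sohlh1 than any tumor but MP tumor 10.

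Taf4b was expressed at similar average levels in tumors and ovaries. It had 25.3, 28.4 and 14.5 TPM in the ovaries (22.7 ± 7.32, SD, n = 3), and in the tumors it ran from 8.56 to 51.5 TPM with a median of 23.4 (26.0 ± 16.5, SD, n = 10). The ranges overlapped, with 5 tumors above every ovary and 4 below. The log2 difference was -0.02 (standard error 0.56), though it moved to -0.99 (standard error 0.34) within library set 1, where the median of all genes was -1.44, and to 0.65 with median-of-ratios scaling, in which the median of all genes moved to 0.01. A second annotated gene, AC133172.1, overlaps Taf4b on the same strand, and its reads may be shared.

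**Figure D2:**
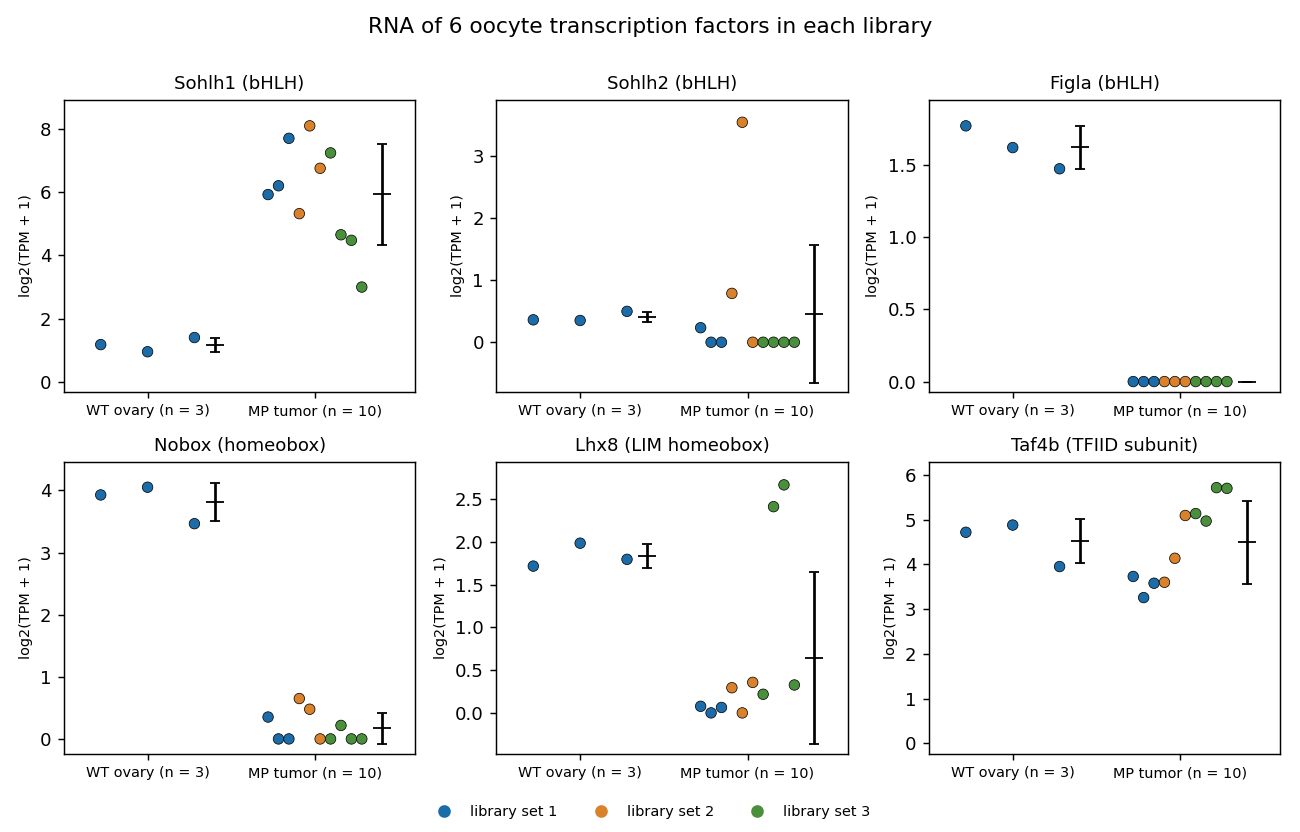
Level of each of the 6 genes as log2(TPM + 1) in the 3 WT ovaries and 10 MP tumors. Points are libraries coloured by library set, and the dash and bar beside each group give its mean and SD. Sohlh1 is higher in every tumor, Figla and Nobox are at or near 0 in all tumors, Sohlh2 is high in MP tumor 5 alone, Lhx8 in 2 tumors, and Taf4b overlaps.

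None of the other 5 genes thus separated the groups in the direction of Sohlh1. As for levels, all per length, Sohlh1 was the most abundant of the 6 in 7 of the tumors, and Taf4b in MP tumors 8, 9 and 10 and in the 3 ovaries.

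The 10 tumors were also compared with each other, which the choice of genes did not use. Taf4b differed between the library sets, with mean levels of 10.6 TPM in set 1, 20.3 in set 2 and 41.7 in set 3 (adjusted P = 0.0179, limma F test with Benjamini-Hochberg adjustment). By that test 25.3% of 15833 genes differed, and with median-of-ratios scaling the adjusted P of Taf4b was 0.139. Sohlh1 had means of 114, 141 and 51.0 TPM in the 3 sets (adjusted P = 0.204 by the same limma test). Mouse Myc differed as well, at 15.7, 116 and 278 TPM (adjusted P = 0.00274 by the same limma test). Within set 1, where ovaries and tumors share a set, Sohlh1 had at least 60.0 TPM in tumors against at most 1.63 in ovaries, and its log2 difference was 5.45 (standard error 0.47).

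Correlations of Sohlh1 over the 10 tumors, on the log2(TPM + 1) scale, were computed for 14 measures, with a 2-sided permutation test of 100000 draws. Sohlh2, Figla and Nobox were left out because fewer than 6 tumors had any read. Lhx8 had a Pearson's r of -0.51 (P = 0.131, adjusted P = 0.472) and a Spearman's rho of -0.70 (P = 0.0290, adjusted P = 0.203). Without MP tumors 5 and 10, the 2 farthest from the median of Sohlh1, its r was -0.78, and after the mean of each library set was subtracted it was -0.21. Single library sets hold too few tumors for a correlation of their own. Taf4b had an r of -0.50 (P = 0.135, adjusted P = 0.472) and a rho of -0.44 (P = 0.202, adjusted P = 0.457), and its r was -0.081 after set means were subtracted. For Myc, r was -0.40 (P = 0.248, adjusted P = 0.579) and rho -0.43 (P = 0.217, adjusted P = 0.457), but r was 0.02 after set means were subtracted. For Trp53, r was -0.66 (P = 0.0324, adjusted P = 0.227) and rho -0.43 (P = 0.218, adjusted P = 0.457). Without MP tumors 5 and 10 the values of r were -0.31, -0.23 and -0.69 for Taf4b, Myc and Trp53. Sequencing depth showed an r of 0.02 (adjusted P = 0.945). For Cdkn2a, Krt8, Wt1, Foxl2, Mki67 and Dnmt1, r lay between -0.45 and 0.24, with adjusted P values of 0.521 or more. Without MP tumors 5 and 10, r moved to -0.77 for Krt8 and to -0.47 for Wt1, and lay between -0.52 and 0.34 for the other 4. None of these passed the threshold.

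The germ cell helicase gene Ddx4 passed it in Pearson's form only. Its r was -0.85 (permutation test, P = 0.00121, adjusted P = 0.0169) and its rho -0.75 (P = 0.0151, adjusted P = 0.203), and r was -0.68 without MP tumors 5 and 10. Ddx4 was at 4.48 TPM in MP tumor 10, the tumor with the least Sohlh1, at 0 in MP tumors 1 and 5, and at no more than 1.25 TPM in the others. The call was lost with median-of-ratios scaling (r -0.57, adjusted P = 0.347), with a pseudocount of 0.1 TPM (r -0.81, adjusted P = 0.0658) and after the library set means were subtracted (r -0.77, adjusted P = 0.127). The 5 genes whose pattern over tumors was most like that of Sohlh1, of 17192 compared, were Ephx4 (r 0.90), Ap3s1 (0.87), Arhgap15 (0.83), Gm45716 (0.82) and D5Ertd605e (0.81), given as a description over 10 tumors without a P value. Ephx4, an epoxide hydrolase gene, reached 3.84 TPM in MP tumor 5 and was at 0 in MP tumor 10. Ap3s1, which encodes a subunit of the AP-3 adaptor, lay between 18.2 and 44.4 TPM, within a much narrower range than Sohlh1.

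Most genes of the growing oocyte, among them targets of these factors, were far lower in the tumors. Of 22 genes of the growing oocyte, all were tested, 18 fell, none rose (0 also at an unadjusted P under 0.05 and in limma-voom), and the median log2 fold change was -4.22, against -0.58 for all genes (14.3% of all tested genes fell). Zp2, a zona pellucida gene driven by FIGLA, had 81.1 ± 12.5 TPM in ovaries (SD, n = 3) and at most 0.210 in a tumor (a difference of -6.30 on the log2 scale). Nlrp14 and Nlrp5, genes of oocyte-stored proteins, had 71.0 ± 15.9 and 29.4 ± 4.28 TPM in ovaries and at most 0.162 and 0.236 TPM in a tumor. Rfpl4, named here after its values were seen, had 0 reads in every tumor. The 4 genes that did not pass were Pou5f1, Tle6, Kit and Uchl1, named here after their values were seen, and Kit, the receptor of the oocyte and of spermatogonia, was at 512 TPM in MP tumor 10. Of the 22 genes, 17 passed the filter through the ovaries alone, and 16 of these are among the 18 that fell, so the remaining count is 2 of 5, where 10.4% of all such genes fell. The median log2 fold change of those 5 was -1.6, against -0.495 for all such genes. Without WT ovary 1, 2 or 3, 11 of the genes could be tested and 7 fell, against 3.61%, 4.05% and 4.06% of all genes then tested.

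Levels of oocyte and granulosa cell markers stood beside these genes as follows. Summed over 8 oocyte markers, all of them genes of the growing oocyte or germ cell lists and so counted there already, levels ran from 227 to 346 TPM in the ovaries and from 2.83 to 41.9 in the tumors (median 9.91). Of the 8 markers 6 fell, 5 of them tested through the ovaries alone, while Ddx4 (adjusted P = 0.0623 in limma) and Dazl (adjusted P = 0.521 in limma) did not pass, and Dazl was above every ovary in 3 tumors, at up to 8.96 TPM. No marker of that list was at 0 in every tumor. Of 10 granulosa markers 8 fell, against 14.3% of all tested genes and with 2 of the 8 tested through the ovaries alone, with summed levels of 4392 to 8117 TPM in ovaries and 48.2 to 2290 in tumors. Of 7 tested epithelial markers 3 fell, 1 of them tested through the ovaries alone, and none rose (0 higher at an unadjusted P under 0.05 and in limma-voom). None of 5 tested immune markers was called by limma, with 0 higher and 2 lower at an unadjusted P under 0.05 (5.63% and 27.4% of all tested genes) and 0 called in limma-voom (16.0% higher and 17.5% lower). The part of cell content in the lower levels of Figla, Nobox and the oocyte genes was not tested. In all 10 tumors, where Sohlh1 was above every ovary, the oocyte sum was below every ovary.

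Germ cell identity genes were mixed. Of 20 genes, 11 were tested, 1 rose, 2 fell and the median log2 fold change was -0.53 (2.51% of all tested genes rose). In limma-voom 3 were higher and 3 lower (16.0% and 17.5% of all tested genes), and 2 were higher and 4 lower at an unadjusted P under 0.05 (5.63% and 27.4%). Piwil2, which encodes a piRNA-binding protein of germ cells, was the gene that rose, from 1.32 ± 0.298 TPM in ovaries (SD, n = 3) to a median of 28.9 in tumors (log2 fold change 3.95 with a standard error of 1.18, adjusted P = 0.0324 in limma). It was above every ovary in 9 of 10 tumors, at 7.83 to 294 TPM, and MP tumor 10 had 1.34. Without WT ovary 1, 2 or 3 its adjusted P was 0.132, 0.112 and 0.134 by the same limma test. The genes that fell were Prdm1 and Sall4, regulators of primordial germ cells and of pluripotency (14.3% of all tested genes fell). Prdm1 went from 3.45 ± 0.233 TPM (SD, n = 3) to a median of 0.461, and its limma adjusted P was 0.0896, 0.0781 and 0.0742 without WT ovary 1, 2 or 3, 0.0553 with a pseudocount of 0.1 TPM and 0.0633 with quantile normalization. Sall4 had 1.28 ± 0.189 TPM in the ovaries and 0 in 9 tumors, it passed the filter through the ovaries alone, and its limma adjusted P was 0.0546 with quantile normalization. With that normalization, or without any 1 ovary, 0 genes of the list were called lower. When any 1 ovary was left out, Sall4 could not be tested, being below 1 TPM in every tumor. By contrast 6, 5 and 6 genes were lower within library set 1, with library set as a covariate and with the replicate block. Of all genes 62.4%, 49.4% and 56.7% were lower in those settings.

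Meiosis genes were mostly too low to be tested. Of 20 genes, 7 were tested and none was called in either direction by limma, with 2 higher and 0 lower at an unadjusted P under 0.05 (5.63% and 27.4% of all tested genes) and 2 higher in limma-voom on the reads worked back (16.0% of all tested genes). Their median was 0.75. Syce2, a synaptonemal complex gene, lay between 12.7 and 417 TPM in tumors against 16.8 ± 3.01 (SD, n = 3) in ovaries, with 9 tumors above every ovary (log2 fold change 2.09 with a standard error of 0.89, adjusted P = 0.118 in limma). Msh5, a meiotic crossover gene, had a log2 fold change of 0.75 (standard error 0.34), and Mlh3, of the same process, -0.69 (standard error 0.37). These calls depended on the setting. Quantile normalization and limma-voom called Syce2 (adjusted P = 0.0211 and 0.0294) and Msh5 (0.00414 and 0.00406) higher, and median-of-ratios scaling in limma called Msh5 higher (adjusted P = 0.0343). Mlh3 was lower by limma within library set 1 (log2 fold change -1.26, adjusted P = 0.00259), with library set as a covariate (0.00446) and with the replicate block (0.00739), settings in which the median of all genes was -1.44, -1.19 and -1.19 and 62.4%, 49.4% and 56.7% of genes were lower, but stood at 0.24 with quantile normalization.

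Genes kept silent in somatic cells by DNA methylation were read as a further list of germline genes. Of 20 genes, 10 were tested, 5 fell (14.3% of all tested genes did), none rose and the median log2 fold change was -1.14. Of the 5 that fell, 4 passed the filter through the ovaries alone, and without WT ovary 1, 2 or 3 the count was 0, 0 and 2. Mael, Tuba3a and Slc25a31, below 1 TPM in every tumor, could not then be tested, so part of that drop was fixed by the filter. No gene of the list was higher at an unadjusted P under 0.05 or in limma-voom. Mael and Tuba3a, a piRNA pathway gene and a testis tubulin gene, had 1.57 ± 0.140 and 4.16 ± 1.06 TPM in ovaries (SD, n = 3) and no read in any tumor. Slc25a31, a testis ADP/ATP carrier gene, had 1.42 ± 0.295 TPM in ovaries and at most 0.307 in a tumor. Rhox5, a homeobox gene named here after its values were seen, ran the other way, with 7 tumors above every ovary, a highest level of 3625 TPM in MP tumor 1 and a log2 fold change of 3.16 with a standard error of 2.24 (adjusted P = 0.328 in limma).

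Partner proteins of the bHLH factors were tested in full. Of 12 genes, 4 fell (14.3% of all tested genes did), 1 of them tested through the ovaries alone, and none rose (0 also at an unadjusted P under 0.05 and in limma-voom), and the median log2 fold change was -0.997. The genes that fell include Id2, an inhibitor of bHLH pairing, from 190 ± 65.2 TPM in ovaries (SD, n = 3) to a median of 29.6 (log2 fold change -2.73, standard error 0.45), and Tcf23 and Tcf24, bHLH genes (-2.09 and -2.33). The call of Tcf23 was lost without WT ovary 1, 2 or 3 (limma adjusted P = 0.0662, 0.0671 and 0.0562), and 2 genes of the list then fell. Within library set 1, with library set as a covariate and with the replicate block, 10, 8 and 10 of the list fell. Of all genes 62.4%, 49.4% and 56.7% fell in those settings. Tcf3 and Tcf12, the E protein genes, had log2 fold changes of -0.42 and -0.86 and were not called. Tcf3 lay between 11.1 and 189 TPM in tumors and was at 85.8 ± 2.33 in ovaries. The correlation of Sohlh1 with Tcf3 over tumors was -0.36 in Pearson's form (permutation test, P = 0.310, adjusted P = 0.620) and -0.42 in Spearman's (adjusted P = 0.457), and that with Tcf12 was -0.24 (permutation test, P = 0.498, adjusted P = 0.699) and -0.0061. Both values of r turned positive, to 0.13 and 0.15, after set means were subtracted.

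TFIID subunits and LIM partners, which work with TAF4B and LHX8, gave a similar count. Of 17 genes, 14 were tested, 4 fell (14.3% of all tested genes did), none rose (0 at an unadjusted P under 0.05, 1 in limma-voom), and the median was -0.91. Taf9b, a TFIID subunit gene, went from 28.2 ± 0.805 TPM in ovaries (SD, n = 3) to a median of 1.65 in tumors (log2 fold change -3.25, standard error 0.53). Lmo2 and Lmo4, genes of LIM-only proteins, fell by 2.16 and 1.63 on the log2 scale. Without WT ovary 1, 2 or 3 both calls were lost (limma adjusted P = 0.155, 0.120 and 0.168 for Lmo2 and 0.0973 to 0.117 for Lmo4), leaving 1 gene of the list lower. Lmo2 was also not called with a pseudocount of 0.1 TPM (0.0631), with thinned reads (0.0583) or without MP tumor 3 (0.0521) or 8 (0.0504), nor Lmo4 with median-of-ratios scaling (0.0573). Within library set 1, with library set as a covariate and with the replicate block, 9 genes of the list fell each time. Of all genes 62.4%, 49.4% and 56.7% fell in those settings. Over the 6 lists together 75 of 110 genes were tested, 1 rose and 33 fell (2.51% and 14.3% of all tested genes), of which 22 had passed the filter through the ovaries alone. Among the other 49 genes 1 rose (2.04%) and 11 fell (22.4%), against 2.66% and 10.4% of all such genes. Without WT ovary 1, 2 or 3, 60 genes could be tested and 10, 10 and 12 fell, against 3.61%, 4.05% and 4.06% of all genes then tested.

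**Figure D3:**
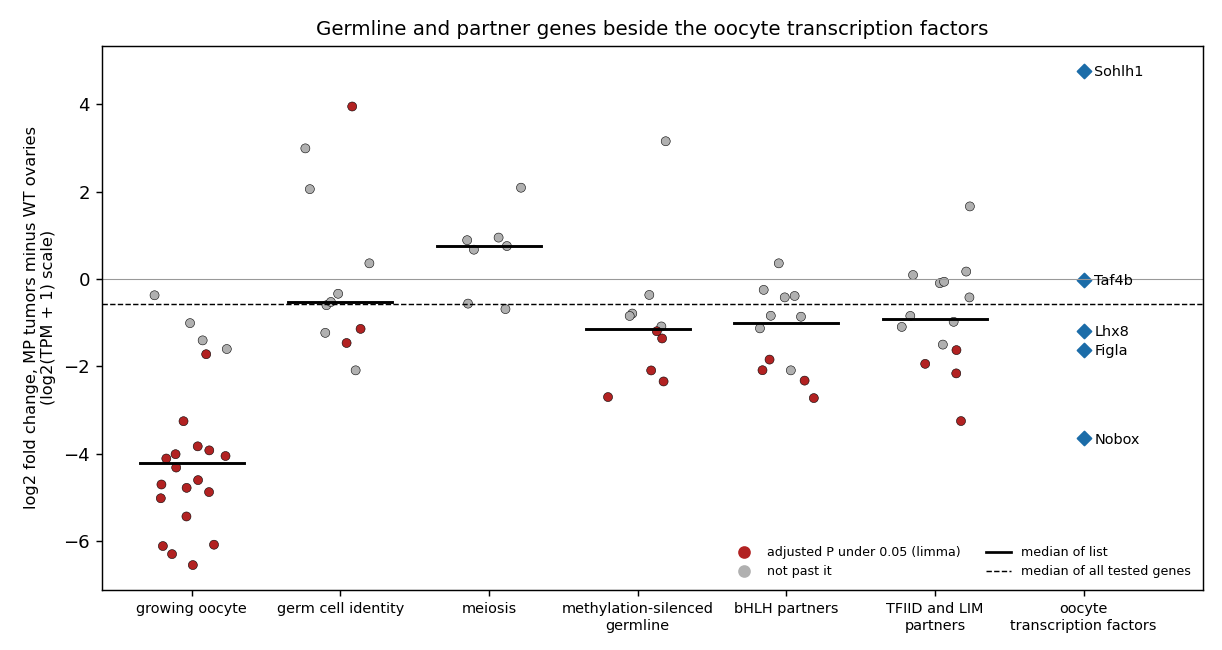
Log2 fold change of each tested gene of the 6 lists, MP tumors minus WT ovaries on the log2(TPM + 1) scale, with the 5 oocyte transcription factors that passed the filter as diamonds. Red points passed an adjusted P of 0.05 (limma), black lines are list medians and the dashed line is the median of all tested genes (-0.58). The growing oocyte list has its median at -4.22, Sohlh1 stands at 4.77 and Piwil2 is the single red point above 0.

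Single tumors carried high levels of single germline genes. A level of at least 10 TPM and 10 times the highest ovary was reached by 13 of the 110 list genes in 1 or more tumors. Of the 75 tested list genes 11 reached it (14.7%), against 4.13% of all tested genes, a difference that was not tested. Sohlh1 reached it in 9 of 10 tumors. Piwil2 did so in 6, Utf1, a pluripotency gene, in 5, and Dmrt1, Rhox5 and Syce2 in 3 each, and the other 8 genes in 1 or 2. These genes were singled out by their values. MP tumor 9 held none of them and MP tumor 10 held 6. MP tumor 5 had the most Sohlh1 and the most Sohlh2, and was also the highest of the tumors for 5 of 6 markers of Sertoli cells and testis, among them Dmrt1 (100.3 TPM against 0 to 0.0593 in ovaries) and Rhox8 (86.7 against 3.36 to 16.0). Over all tumors none of those 6 markers rose by limma (2.51% of all tested genes did) and 1 fell (14.3%). At an unadjusted P under 0.05, 0 were higher (5.63%), and in limma-voom 1 was (16.0%). MP tumor 5 was the highest tumor as well for 3 of 10 granulosa markers, Amhr2 (751 TPM against 181 to 200 in ovaries), Amh (28.9 against 228 to 441) and Fshr (1.52 against 23.6 to 75.5), and for 3 of 22 growing oocyte genes, Bmp15, Dppa3 and Zar1, which were all below the ovaries. The share of all genes that were highest in MP tumor 5, which had the fewest reads (3892690), was not computed, so these counts are a description only.

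The call for the genes beside Sohlh1 on chromosome 2 depended on the tool. The 5 nearest tested genes on each side lie from 215 kb below to 290 kb above it. In limma 0 were called higher (2.51% of all tested genes were) and 1 was higher at an unadjusted P under 0.05 (5.63%). Of the 10, 1, Nacc2, fell (14.3% of all tested genes did), with a log2 fold change of -2.55 and a standard error of 0.72 (adjusted P = 0.0246 in limma). Their median was 0.53, against -0.50 over 1334 tested genes of the chromosome. Kcnt1, a potassium channel gene that starts 16.5 kb away, had 4.90 ± 2.66 TPM in ovaries (SD, n = 3) and a median of 22.3 in tumors (log2 fold change 1.55 with a standard error of 0.87, adjusted P = 0.222 in limma). Gm13539, 56.0 kb away, was listed at 0 in the ovaries and had a median of 2.86 TPM in tumors (log2 fold change 1.85, standard error 0.76). In limma-voom 6 of the 10 neighbours were called higher, where 2760 of 17277 genes (16.0%) were.

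**Figure D4:**
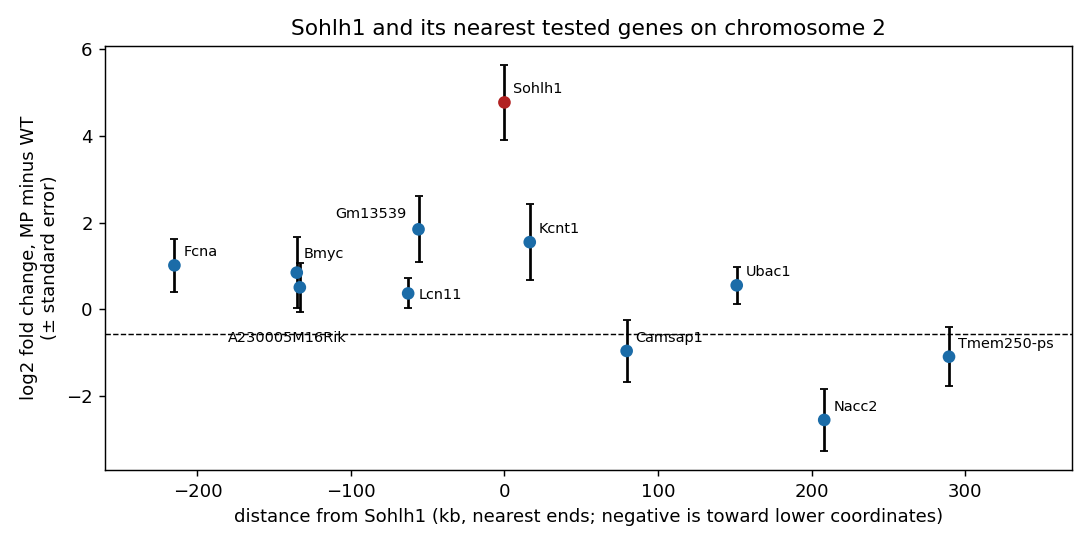
Log2 fold change with its standard error of Sohlh1 (red) and its 5 nearest tested genes on each side, against distance in kb between nearest ends. The dashed line is the median of all tested genes. Sohlh1 stands at 4.77 and its neighbours between -2.55 and 1.85.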

How the data were processed

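Bulk RNA of 3 WT ovaries and 10 MP tumors was read from 1 table in which the authors deposited TPM per gene and library, with gene positions and lengths. Replicates were not pooled. The submitters' processing notes name FastQC 0.11.5, Trimmomatic 0.36, STAR 2.5.3a, featureCounts 1.6.3 and mm10 or GRCm38, whereas the protocol text names a human build, HTSeq and RPKM. The table holds mouse genes and the 6 genes here have the coordinates of GENCODE M21 (GRCm38), so the build was taken as GRCm38.

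Values were tested as log2(TPM + 1), a scale that understates the change of low genes, in genes with at least 1 TPM in at least 3 libraries, with limma 3.58.1 (trend and robust options) in R 4.3.3, all 13 libraries and no covariate, with Benjamini-Hochberg adjustment at 0.05. Reads were worked back as TPM times length over the smallest step. All values above 0 were whole within 0.01, taking the step as 1 read, and 1 read in 1 kb was worth 0.0513 to 0.790 TPM. These reads gave exact 95% Poisson intervals, floors of 3 reads and the limma-voom and thinned alternatives. Other alternatives varied pseudocount, filter, scaling, library set and single libraries. Pairs of libraries of a group differed by more than sampling noise. The labels do not state that samples of a group are separate animals, so P values measure the spread between samples. Same-numbered WT and MP samples are different tissues and were not treated as pairs.

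Members and gene lists were chosen with earlier results of these data known. Named genes are the 6 members, the 3 tested genes of each list with the largest moderated statistic and any called higher, the 5 genes most like Sohlh1, its 10 neighbours, the correlation family and the markers. Promoter windows and their matches were read from RefSeq, which held 5 of the 6 genes. The limma fit was tested on simulated counts with the same spread in both groups. Python 3.11.15, pandas 2.3.3, numpy 2.4.6, scipy 1.17.1 and matplotlib 3.10.9 were used.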

Additional observations from a re-analysis of the deposited data

Results flagged for a closer look

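In 5 of the 21 genes checked, 1 of the 10 MP tumors stood apart from the others by Dixon's criterion for 10 samples. The criterion's chance rate of about 1 in 20 assumes normally distributed values. Here the values were TPM, and most of these 5 genes were at 0 in most tumors, so the count cannot be set against that rate. Sohlh2 had 10.7 TPM in MP tumor 5 and 0.727 TPM in the next highest tumor. The other 4 were at low levels, with Nlrp5 at 0.236 TPM and Nlrp14 at 0.162 TPM in MP tumor 4, Sall4 at 0.327 TPM in MP tumor 1, and the bHLH gene Tcf24 at 2.45 TPM in MP tumor 10, against 1.32 TPM in the next tumor.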

How the results depend on the processing

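The log2 difference of Sohlh1 lay between 4.53 and 6.22 under 24 alternatives, with 5.10 the highest when 1 library was left out. The balance of all genes moved with the setting. Median-of-ratios scaling gave 1268 higher and 1776 lower (41.7% of calls higher, against 15.0%), quantile normalization 1904 higher, and limma-voom 2760 higher. Set 1 alone gave 1043 higher and 9504 lower, library set as a covariate 894 and 8534. Leaving out 1 library gave 65 to 637 higher and 604 to 3238 lower, and the lowest counts came without WT ovary 3 (65 higher) and WT ovary 1 (604 lower). With the replicate number as a block, 1087 genes were higher and 9803 lower, and of the list genes 2 were higher and 51 lower, but same-numbered samples had correlations of deviations of -0.0963, -0.0214 and 0.00118 and share only a number.

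For the 6 lists, median-of-ratios scaling gave 2 genes higher, quantile normalization 4 and limma-voom 6, and set 1 alone gave 51 lower. Without 1 library the counts were 0 to 1 higher and 10 to 35 lower, and leaving out an ovary also removed genes from the test. Correlations with Sohlh1 past the threshold numbered 0 with median-of-ratios scaling, with a pseudocount of 0.1 and after library set means were subtracted. The difference of Taf4b, -0.02, stood at 0.65 with median-of-ratios scaling, 0.76 with quantile normalization, 0.74 in limma-voom and 0.094 with thinned reads, and was also above 0 without any 1 of 7 libraries (up to 0.16). Other reversed signs, none of them past the threshold, were seen for Mlh3 with quantile normalization (0.24) and for the correlations with Krt8 under median-of-ratios scaling (0.0048) and, after set means were subtracted, with Tcf3 (0.13), Tcf12 (0.15), Myc (0.023) and Dnmt1 (0.096). Where a count moved, the cause was not tested beyond the genes that left the test. Depth limits the low members: 3 reads of Figla or Sohlh2 in the shallowest tumors are worth more than the level of an ovary.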
